A study of Mus musculus with 24 samples.

Results

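Insulin-like growth factor 1 (IGF1), its receptors and the proteins that bind it were followed in the mouse cochlea from the neonatal to the adult age, in wild type mice and in mice lacking the α9 nicotinic receptor subunit. The members were all probe sets annotated to exactly 1 gene symbol among Igf1, Igf1r, Igf2r, Igfbp2, Igfbp3, Igfbp4, Igfbp5, Igfbp6 and Igfbp7. They comprised 26 probe sets of 9 genes, out of 45037 probe sets on the array and 18193 named genes. Igfbp4 had 6 probe sets, Igf1r 5, Igf1 4 and Igfbp7 3, while Igf2r, Igfbp3 and Igfbp5 had 2 and Igfbp2 and Igfbp6 had 1. Probe sets of a gene differ in brightness for reasons of design, so signals were tested between arrays and not between probe sets or genes. The probe set of highest mean signal (the brightest) stands for a gene unless another is named.

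The study hybridized total RNA from pools of cochleae to 24 arrays of the Affymetrix mouse genome design, 3 in each of the 8 groups. The groups were wild type and α9-/- mice at postnatal day 3 (P3), P7, P13 and P60, which the study chose as ages before hearing, at hearing onset and after maturation. The deletion of Chrna9 was constitutive, so it was present in every cell and at every age, and all mice were 129S6 x CBA/CaJ hybrids that had been bred back to CBA/CaJ for 7 generations or more. Each array carried 1 pool, for which the series description gives 3 to 5 mice, while the study's methods count cochleae and make the pools smaller at the later ages, a difference that was not reconciled here.

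IGF1 is a secreted hormone and local growth factor that acts through the receptor tyrosine kinase IGF1R, which signals through the PI3K to AKT and RAS to MAPK routes to promote growth, survival and differentiation. IGF2R, the cation-independent mannose 6-phosphate receptor, takes up IGF2 for degradation and sorts lysosomal enzymes. The binding proteins hold most IGF outside cells, prolong its life and limit or direct its access to the receptor, and IGFBP7, a relative of low affinity, lies in basement membranes and around vessels. In the inner ear IGF1 is known for a part in the postnatal growth and maturation of the cochlea and its ganglion, and its loss causes deafness in mice and humans.

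On the deposited log2 scale the array medians lay between 6.49 and 6.89. Markers of the labelled tissue were detected, with mean signals (normalized across all arrays) over 7 stria vascularis, 5 otic fibrocyte and 7 spiral ganglion neuron genes of at least 8.95, 10.78 and 9.07 on every array. Of 7 hair cell genes, Slc26a5, Pou4f3 and Tmc1 had mean signals of 4.51, 5.27 and 5.61. The others, Gfi1, Myo7a, Otof and Myo6, had 7.68, 7.72, 7.77 and 9.82. Levels of different probe sets are not comparable, so these values do not show how well hair cells were sampled. The 3 probe sets of Chrna9 lay low in both genotypes, from 3.47 to 6.33 in wild type and from 3.24 to 5.94 in α9-/- arrays, and their position relative to the deleted part was not known here, so they do not check the genotype. On 5 arrays the 3′ control probe set of Gapdh exceeded the 5′ one by 6.30 to 7.69 on the log2 scale, against at most 2.43 on the other 19 (a control of RNA and labelling quality). These arrays of low 5′ signal were replicate 1 of wild type at P3, P13 and P60, replicate 2 of wild type at P13 and replicate 2 of α9-/- at P3, and the tests of the members below were also run without them.

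Between P3 and P60 the ligand Igf1, the receptor Igf2r and the binding proteins Igfbp2 and Igfbp3 fell, Igfbp6 rose, and Igfbp4, Igfbp5, Igfbp7 and Igf1r did not pass the test at their brightest probe sets. Ages were compared over both genotypes with limma, on values normalized across all 24 arrays, at an adjusted p under 0.05. Of the 26 probe sets, 2 rose and 8 fell between P3 and P60, where 12.1% of all probe sets rose and 13.3% fell. No member passed between P3 and P7, with 5 at an unadjusted p under 0.05, where 2.21% of all rose and 4.01% fell. Between P7 and P13, 1 rose and 6 fell (9.33% and 6.54% of all), and between P13 and P60, 4 rose and 3 fell (9.69% and 11.2% of all). The median difference of the 26 probe sets between P3 and P60 was -0.40 on the log2 scale, beside -0.05 for all probe sets, and 21 of the 26 differences were below 0. Probe sets of the same gene are not independent. At the brightest probe sets 7 of the 9 genes were below 0, of which 4 passed. Contrasts that have an age in common use the same arrays and are not independent of each other. The P7 to P13 count of 7 was 3 without P7 wild type replicate 3 or without P7 α9-/- replicate 3, and 4 without P13 wild type replicate 1, P13 wild type replicate 2 or P13 α9-/- replicate 3. Without the arrays of low 5′ signal, the 10 probe sets that passed between P3 and P60 passed again among 12, and 5 of the 7 passed again between P7 and P13.

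**Figure D1:**
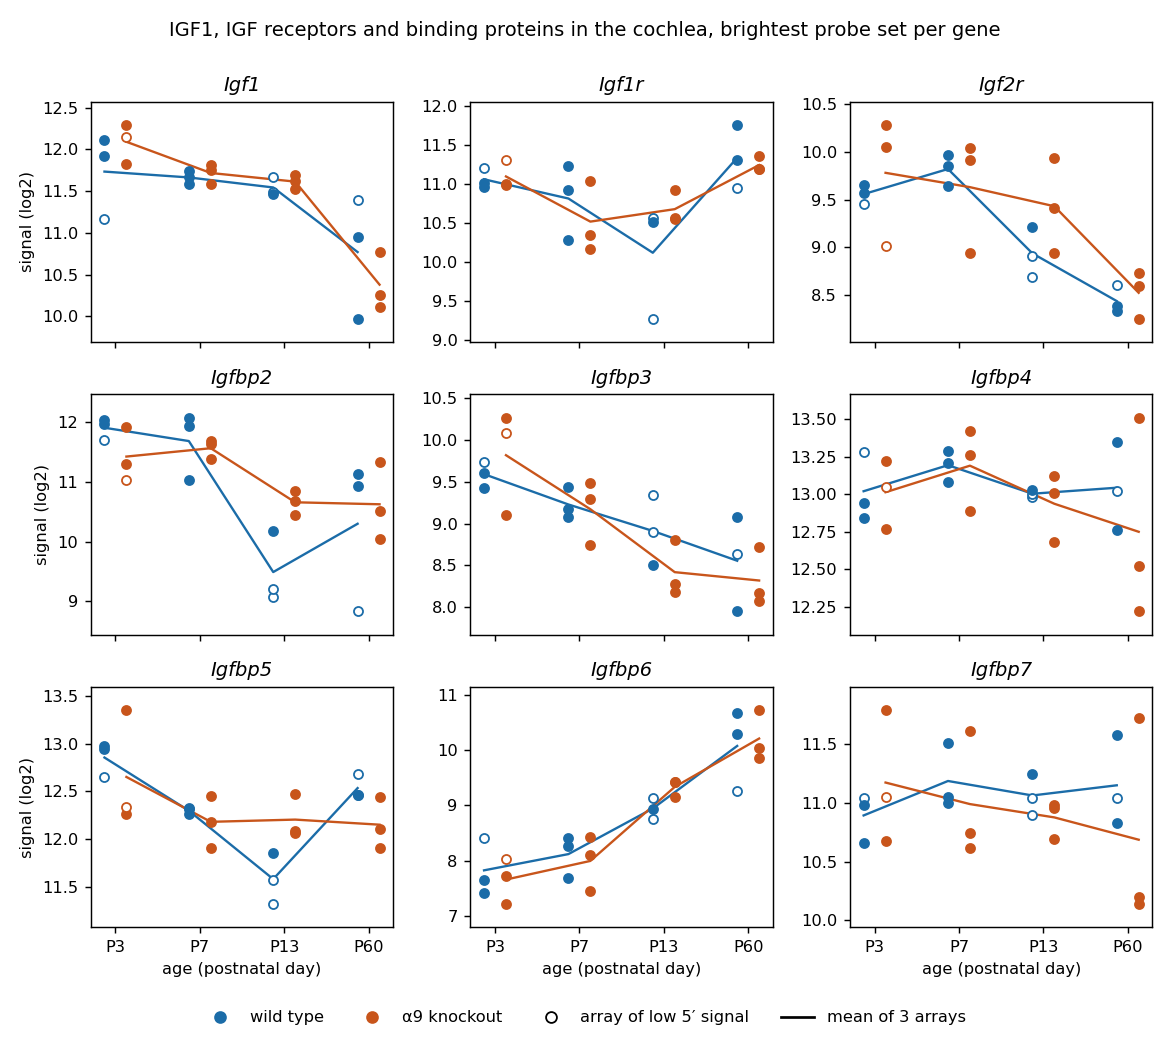
Signal (log2, normalized across all arrays) of the brightest probe set of each of the 9 genes against age in postnatal days, with 1 point per array, blue for wild type and orange for α9-/-, open points for arrays of low 5′ signal and lines through the means of 3 arrays. Igf1, Igf2r and Igfbp3 end below and Igfbp6 ends above their P3 levels in both genotypes, and the scale differs between panels.

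Igf1, the ligand, lies at chr10:87858265-87937047 (GRCm38.p6). Its brightest probe set ranged over 6 arrays from 11.17 to 12.29 at P3 (median 12.01), from 11.58 to 11.81 at P7 (median 11.71), from 11.47 to 11.69 at P13 (median 11.57) and from 9.97 to 11.39 at P60 (median 10.51). The level at this probe set was thus nearly flat until hearing onset and lower in the adult, where 5 of the 6 arrays lay below every array of the earlier ages. The sixth, P60 wild type replicate 1 at 11.39, lay above P3 wild type replicate 1 at 11.17, and both were arrays of low 5′ signal.

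Igf1 fell by 1.34 on the log2 scale between P3 and P60, a 2.53-fold decrease (SE 0.20, adjusted p = 4.01e-05, limma). The step after hearing onset, from P13 to P60, was -1.01 (adjusted p = 0.00114), while the steps from P3 to P7 (-0.22, adjusted p = 0.585) and from P7 to P13 (-0.11, adjusted p = 0.764) did not pass. In wild type alone the step from P13 to P60 was -0.78 and did not pass (adjusted p = 0.0798). The difference between P3 and P60 was -0.97 in wild type and -1.71 in α9-/-, and this difference of -0.75 between genotypes did not pass (adjusted p = 0.943). Without the arrays of low 5′ signal Igf1 fell by 1.62 (adjusted p = 1.63e-05).

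The other 3 probe sets of Igf1 also had lower means at P60. 1437401_at, whose 6 arrays at P60 (9.85 to 10.89) all lay under those at P3 (11.80 to 12.25), fell by 1.67 (adjusted p = 7.27e-07), and 1419519_at fell by 0.86 (adjusted p = 0.0403). 1452014_a_at, with -0.38, did not pass (adjusted p = 0.365). The step from P13 to P60 passed at 1437401_at (-1.11, adjusted p = 1.66e-04). It did not pass at 1419519_at (-0.46, adjusted p = 0.300) or 1452014_a_at (-0.44, adjusted p = 0.301).

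Of the receptors, Igf2r fell into adulthood and Igf1r rose after hearing onset. Igf2r (chr17:12682406-12769706) lay between 9.01 and 10.28 at P3 (median 9.61), 8.94 and 10.04 at P7 (median 9.88), 8.69 and 9.94 at P13 (median 9.08) and 8.25 and 8.73 at P60 (median 8.49). No P60 array reached the lowest array of P3 or P7. Igf2r fell by 1.19 between P3 and P60, or 2.28-fold (SE 0.22, adjusted p = 3.95e-04), and its second probe set 1424112_at fell by 1.17 (adjusted p = 0.0109). At the brightest probe set the step from P13 to P60 was -0.70 (adjusted p = 0.0279). This call was lost on leaving out P13 wild type replicate 3 (-0.63), P13 α9-/- replicate 1 (-0.58), P60 wild type replicate 2 (-0.68), P60 wild type replicate 3 (-0.69) or P60 α9-/- replicate 3 (-0.64). In neither genotype alone did this step pass, with -0.50 in wild type and -0.90 in α9-/-. At 1424112_at the fall lay earlier, with -1.15 from P7 to P13 (adjusted p = 0.0198) and -0.06 from P13 to P60 (adjusted p = 0.928). Its P7 to P13 step was -2.40 in wild type and 0.09 in α9-/-, and -0.86 without the arrays of low 5′ signal. The difference of 2.49 between genotypes in that step did not pass (adjusted p = 0.401).

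Igf1r, the signalling receptor (chr7:67952257-68233668), went from 10.96 to 11.31 at P3 (median 11.01) through 10.17 to 11.23 at P7 (median 10.64) and 9.27 to 10.92 at P13 (median 10.56) to between 10.95 and 11.76 at P60 (median 11.25). All 6 P60 arrays lay above all 6 P13 arrays, and the lowest P13 value belonged to wild type replicate 1, an array of low 5′ signal. Igf1r rose by 0.90 between P13 and P60, or 1.87-fold (SE 0.22, adjusted p = 0.00642), and by 0.79 without the arrays of low 5′ signal (adjusted p = 0.0222). The step was 1.22 in wild type (adjusted p = 0.0144) and 0.57 in α9-/-, where it did not pass (adjusted p = 0.368), and the difference of -0.65 between genotypes did not pass either (adjusted p = 1.00). On the values as deposited, which were not normalized across ages here, that step was 0.48 and did not pass.

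Over the whole interval from P3 to P60 the brightest probe set of Igf1r differed by 0.21 (adjusted p = 0.547). A dimmer one, 1428967_at, did rise, from 8.10 to 8.47 at P3 to between 8.62 and 9.22 at P60, without overlap (difference 0.65, adjusted p = 0.00298). The remaining 3 probe sets of Igf1r, with differences from -0.23 to 0.01, did not pass.

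Igfbp6, which binds IGF2 in preference to IGF1, showed the largest difference between P3 and P60 of the 26 probe sets. It lies at chr15:102144186-102149512. Igfbp6 ranged from 7.22 to 8.41 at P3 (median 7.69), 7.46 to 8.43 at P7 (median 8.19), 8.76 to 9.43 at P13 (median 9.15) and 9.26 to 10.72 at P60 (median 10.16). Every P13 array lay above every P7 array, and every P60 array above every P3 and P7 array, while P60 wild type replicate 1 (9.26) lay within the P13 range.

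Igfbp6 rose by 2.40 between P3 and P60, a 5.28-fold increase (SE 0.25, adjusted p = 5.19e-07, limma). The rise was 2.25 in wild type and 2.55 in α9-/-. It came in similar steps, 1.08 from P7 to P13 (adjusted p = 0.00521) and 1.00 from P13 to P60 (adjusted p = 0.00665), while P3 and P7 did not differ beyond their spread (0.32, adjusted p = 0.514). Within a genotype the first of these steps passed in α9-/- (1.34) and not in wild type (0.82), and the second in wild type (1.13) and not in α9-/- (0.87), while the differences between genotypes, 0.51 and -0.26, did not pass. On the values as deposited the step from P13 to P60 was 0.62 and did not pass.

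Igfbp3, the main carrier of IGF in blood (chr11:7206086-7215498), lay between 9.11 and 10.27 at P3 (median 9.68), 8.74 and 9.49 at P7 (median 9.23), 8.18 and 9.34 at P13 (median 8.65) and 7.95 and 9.08 at P60 (median 8.40). The median was lower at each later age, and the P60 arrays all lay under the P3 arrays, by a margin of 9.08 against 9.11. Igfbp3 fell by 1.27 between P3 and P60, or 2.41-fold (SE 0.23, adjusted p = 2.68e-04), and none of its 3 single steps passed at this probe set, with -0.50, -0.54 and -0.23. Its other probe set 1458268_s_at fell by 1.45 (adjusted p = 1.07e-04).

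Igfbp2 (chr1:72824480-72852474), abundant in fetal tissues and the nervous system, fell up to hearing onset. Its arrays lay between 11.04 and 12.04 at P3 (median 11.82), 11.04 and 12.08 at P7 (median 11.66), 9.08 and 10.85 at P13 (median 10.31) and 8.83 and 11.33 at P60 (median 10.72). All P13 arrays lay under all P7 arrays, whereas the P60 arrays overlapped those of every other age. Igfbp2 fell by 1.55 between P7 and P13, or 2.93-fold (SE 0.33, adjusted p = 0.00295), and by 1.20 between P3 and P60 (adjusted p = 0.0103).

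The lowest Igfbp2 values, 8.83 at P60 and 9.08 and 9.21 at P13, were all from arrays of low 5′ signal. Without these arrays the falls were 1.21 (adjusted p = 0.00757) and 0.99 (adjusted p = 0.00873). In α9-/- arrays alone, which hold 1 such array, at P3, Igfbp2 differed by -0.91 between P7 and P13 and by -0.80 between P3 and P60, and neither passed. The difference between genotypes in the P7 to P13 step was 1.29 (adjusted p = 0.571).

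The brightest probe sets of Igfbp4, Igfbp5 and Igfbp7 passed in none of the 4 contrasts of ages. Igfbp4, an inhibitor of IGF action that the protease PAPP-A cleaves (chr11:99040005-99052655), had means over 6 arrays of 13.02, 13.19, 12.97 and 12.90 at P3, P7, P13 and P60, and differed by -0.12 between P3 and P60 (SE 0.18, adjusted p = 0.703). Igfbp7 (chr5:77349240-77408045) had medians of 11.01, 11.02, 10.97 and 10.93 and differed by -0.11 (SE 0.26, adjusted p = 0.808). At P60 both spread widely in α9-/- mice, with Igfbp4 at 12.52, 12.22 and 13.51 and Igfbp7 at 10.20, 10.14 and 11.72 in replicates 1 to 3. Replicate 3 was the highest for both genes. Across the 24 arrays the Pearson correlation of Igfbp4 with Igfbp7 was 0.85, as a description of arrays that share ages, pools and normalization.

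Igfbp5, which binds bone mineral and matrix (chr1:72858065-72874865), had medians of 12.80, 12.28, 11.96 and 12.45. Its difference between P3 and P60 was -0.41 (SE 0.17, adjusted p = 0.0873) with all arrays and -0.58 (adjusted p = 0.0383) without those of low 5′ signal. Of the 5 other probe sets of Igfbp4, 1437406_x_at spread about as little as the brightest, with an SD over 6 arrays of 0.10 at P13 beside 0.15, whereas the remaining 4 had SDs between 0.96 and 1.55 at that age. Among these 4, 1421992_a_at fell by 2.13 between P7 and P13 (adjusted p = 0.0443) and 1421991_a_at by 2.06 (adjusted p = 0.0272). In α9-/- alone these steps were -1.09 and -1.06 and did not pass. Without the arrays of low 5′ signal they were -1.28 and -2.01 over both genotypes. The other probe set of Igfbp5 had an SD of 1.11 at P13 beside 0.41 for the brightest.

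**Figure D2:**
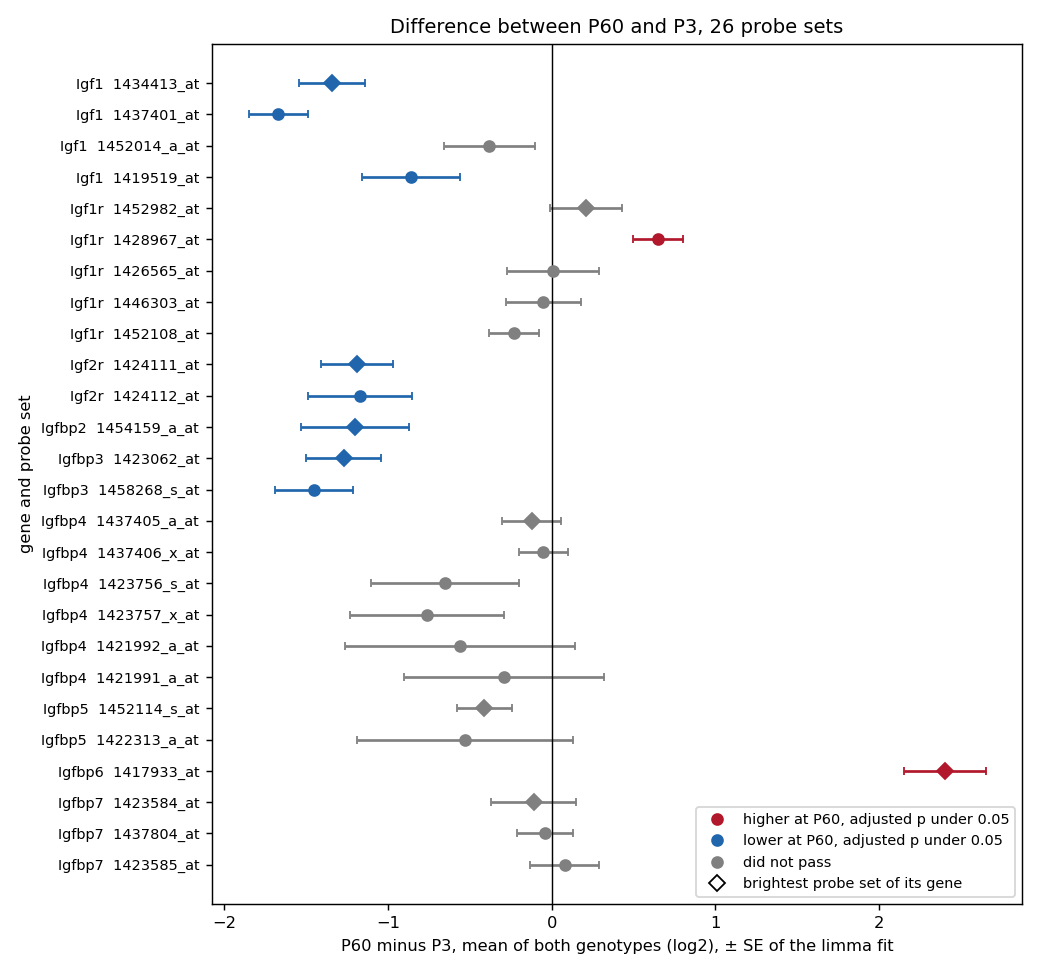
P60 minus P3 (log2, mean of both genotypes) on the horizontal axis for each of the 26 probe sets, with bars of ± 1 SE of the limma fit, diamonds for the brightest probe set of a gene, red for those that rose, blue for those that fell and grey for those that did not pass. Igfbp6 stands at 2.40 and the 4 genes that fell at their brightest probe sets between -1.34 and -1.19, while the grey bars of Igfbp4 and Igfbp5 are the widest.

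The promoters of the 5 genes that passed between P3 and P60 at their brightest probe sets are shown. Each is the RefSeq window from 250 bases before to 50 after a transcript start, in GRCm38.p6, read 5′ to 3′ on the strand of the gene. Capitals mark matches on either strand to the letters TATAAA of the TATA box, to the box named CCAAT or to the letters GGGCGG of the GC box.
Igf1, chr10:87860861-87861160, plus strand: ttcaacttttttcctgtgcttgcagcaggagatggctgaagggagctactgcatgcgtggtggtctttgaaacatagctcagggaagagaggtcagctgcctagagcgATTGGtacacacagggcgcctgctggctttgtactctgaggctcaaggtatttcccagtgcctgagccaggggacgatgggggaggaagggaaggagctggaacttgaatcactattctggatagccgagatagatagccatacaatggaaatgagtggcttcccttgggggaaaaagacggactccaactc
Igf2r, chr17:12769657-12769956, minus strand: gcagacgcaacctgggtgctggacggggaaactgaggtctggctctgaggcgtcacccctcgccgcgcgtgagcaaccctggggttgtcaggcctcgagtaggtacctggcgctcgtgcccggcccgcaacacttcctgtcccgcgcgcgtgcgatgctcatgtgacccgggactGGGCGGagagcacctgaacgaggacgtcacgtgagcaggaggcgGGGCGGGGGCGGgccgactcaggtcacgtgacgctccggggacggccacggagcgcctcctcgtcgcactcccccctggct
Igfbp2, chr1:72824230-72824529, plus strand: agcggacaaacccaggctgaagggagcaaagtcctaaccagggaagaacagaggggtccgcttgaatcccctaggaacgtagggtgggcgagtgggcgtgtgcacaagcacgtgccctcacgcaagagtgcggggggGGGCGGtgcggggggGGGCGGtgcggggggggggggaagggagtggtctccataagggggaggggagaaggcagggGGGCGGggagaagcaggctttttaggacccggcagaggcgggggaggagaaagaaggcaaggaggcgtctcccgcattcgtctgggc
Igfbp3, chr11:7213874-7214173, minus strand: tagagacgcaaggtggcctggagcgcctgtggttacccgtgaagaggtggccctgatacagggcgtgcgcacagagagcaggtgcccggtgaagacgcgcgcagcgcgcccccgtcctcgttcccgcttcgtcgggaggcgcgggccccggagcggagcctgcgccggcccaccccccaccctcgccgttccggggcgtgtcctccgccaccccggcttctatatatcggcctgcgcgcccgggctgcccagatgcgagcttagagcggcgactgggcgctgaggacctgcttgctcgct
Igfbp6, chr15:102143936-102144235, plus strand: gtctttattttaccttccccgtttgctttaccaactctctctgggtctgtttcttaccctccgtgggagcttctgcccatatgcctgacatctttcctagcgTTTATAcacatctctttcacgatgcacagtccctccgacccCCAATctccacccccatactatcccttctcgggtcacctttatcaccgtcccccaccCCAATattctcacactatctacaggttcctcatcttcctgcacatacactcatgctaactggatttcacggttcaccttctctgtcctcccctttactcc

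The windows of the falling genes Igf2r and Igfbp2 each held 3 GC boxes, that of Igf1 held 1 CCAAT box, and that of Igfbp3 held none of the 3 motifs. The window of Igfbp6, the gene that rose, held 2 CCAAT boxes and 1 TATAAA, 148 bases before the start on the opposite strand. No 2 matches overlapped. All 9 members had a window in the table and Igfbp2 had a second, and GGGCGG was in 4 of the 10 windows, CCAAT in 2 and TATAAA in 2, beside 35.7%, 37.4% and 13.6% of the 32851 windows of all genes. The GC content was 49.7% for Igfbp6, 52.3% for Igf1, 67.0% for Igfbp2, 70.7% for Igf2r and 71.7% for Igfbp3, against a median of 52.7% over all windows. These matches describe the letters only, and a motif that was not found says nothing of the factor that binds it.

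In bulk tissue a lower signal may come from fewer cells of a type or from less RNA per cell, and these cannot be told apart. Markers of several tissues that surround or fill the cochlea were lower at P60 than at P3, as were Igf1, Igf2r, Igfbp2 and Igfbp3. This compares the end points only and not the steps between them. Of the osteoclast genes 5 of 5 fell, of the osteoblast genes 3 of 4, of the fibroblast genes 5 of 6 and of the cartilage genes 5 of 7, and none of these rose. Beside them, 13.3% of all probe sets fell, a share that includes dim probe sets, while each marker gene is counted at its brightest. On single arrays the mean signal of the cartilage genes went from between 10.54 and 12.21 at P3 to between 8.30 and 8.77 at P60, that of the osteoclast genes from between 10.19 and 11.11 to between 7.54 and 8.65, and that of the fibroblast genes from between 12.92 and 13.51 to between 12.17 and 12.95. Their part in the decrease of Igf1, Igf2r, Igfbp2 and Igfbp3 was not tested.

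Other lists rose over the same interval as Igfbp6. All 8 neutrophil genes, 6 of 7 stria vascularis genes, 6 of 7 cerebellar genes, 4 of 7 skeletal muscle genes, 3 of 4 erythroid genes and 3 of 7 spiral ganglion neuron genes rose and none of them fell. Beside them, 12.1% of all probe sets rose, dim ones included. The mean signal of the neutrophil genes went from between 7.21 and 8.55 at P3 to between 11.91 and 12.41 at P60, that of the stria vascularis genes from between 9.14 and 9.69 to between 10.02 and 11.11, that of the cerebellar genes from between 6.50 and 7.27 to between 7.80 and 11.41, and that of the erythroid genes from between 6.26 and 7.72 to between 8.44 and 8.86. Their part in the increase of Igfbp6 was not tested. Of 8 macrophage genes, 1 rose and 3 fell between P3 and P60, with array means between 9.32 and 9.82 at P3 and between 8.79 and 10.01 at P60.

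Over the 24 arrays, the genes whose brightest probe sets followed a member most closely were sought among 7274 genes with group means that span at least 1 on the log2 scale. For Igf1 they were Fndc3b (Pearson r = 0.918), the cartilage collagen gene Col9a1 (0.916) and Jpt2 (0.909). For Igf2r they were Col12a1 (0.885), Dlx5 (0.878) and Galnt10 (0.873), and for Igf1r Tacc2 (0.852), Sgtb (0.844) and Epb41l5 (0.826). Igfbp2 was followed by Islr (0.967), Maged1 (0.966) and Ddah2 (0.955), Igfbp3 by Hip1 (0.909), Ptgfrn (0.906) and Megf6 (0.899), and Igfbp6 by Mettl7a1 (0.973), Kcnab2 (0.962) and Syt2 (0.952). For Igfbp4, Igfbp5 and Igfbp7 the closest genes were Maz (0.837), Erbb3 (0.828) and Rad23b (0.727). Within the family, Igf1 and Igfbp6 ran opposite to each other with r = -0.85. The arrays share ages, 5′ signal and normalization, and the values are descriptions.

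The rest of the IGF pathway was followed in 63 measured genes of 75 listed, of which 11 rose and 15 fell between P3 and P60. Of all probe sets 12.1% rose and 13.3% fell over this interval, and the counts in single lists below stand beside these shares. The shares include dim probe sets, while each list gene is counted at its brightest, so the 2 are not like for like. Outside the cell 0 of 13 rose and 7 fell, with a median of -0.43. They included Igf2, the other IGF ligand (-2.28, adjusted p = 7.34e-06), Htra1, a secreted protease that cleaves binding proteins (-1.32, adjusted p = 7.64e-05), the binding protein-like Igfbpl1 (-1.09) and Pappa2, a protease of IGFBP5 (-1.08). The largest fall in the pathway lists was that of Grb10, an adaptor that dampens insulin and IGF receptor signalling, with a difference of -3.04 (SE 0.15, adjusted p = 3.85e-11). Among the 14 adaptors and docking proteins 3 rose, Irs2 (0.70), Grb14 (0.59) and Ptpn11 (0.48), and 4 fell, Grb10, Socs3 (-0.98), Irs1 (-0.80) and Shc1 (-0.64). The docking proteins Irs1 and Irs2 thus moved in opposite directions.

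Downstream, of 22 genes of the PI3K, AKT, mTOR and FOXO route 3 rose, the AKT-activating kinase Pdpk1 (0.64), Rictor (0.47) and Tsc1 (0.46), and 2 fell, the repressor of translation Eif4ebp1 (-1.06) and the cell death gene Bad (-0.73). Of 8 genes of the RAS to MAPK route 4 rose, the RAS activators Sos2 (0.87) and Sos1 (0.44) and the kinases Braf (0.55) and Map2k1 (0.43), and Nras fell (-0.79). Of 6 genes of the growth hormone axis and of IGF2 mRNA binding, Stat5b rose (0.51) and Igf2bp3, an RNA-binding protein of fetal tissue, fell (-1.88, adjusted p = 1.21e-05). The medians of these 3 lists were 0.05, 0.25 and -0.06, and that of the adaptors was -0.17. Without the arrays of low 5′ signal 18 of the 26 changes passed again, and 8 did not. Of these 8, the difference was -0.63 for Shc1, 0.46 for Tsc1 and 0.60 for Stat5b without those arrays, and it went to 0.46 for Pdpk1, 0.37 for Rictor, 0.36 for Sos1, 0.31 for Braf and 0.29 for Map2k1 (adjusted p from 0.0649 to 0.173).

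**Figure D3:**
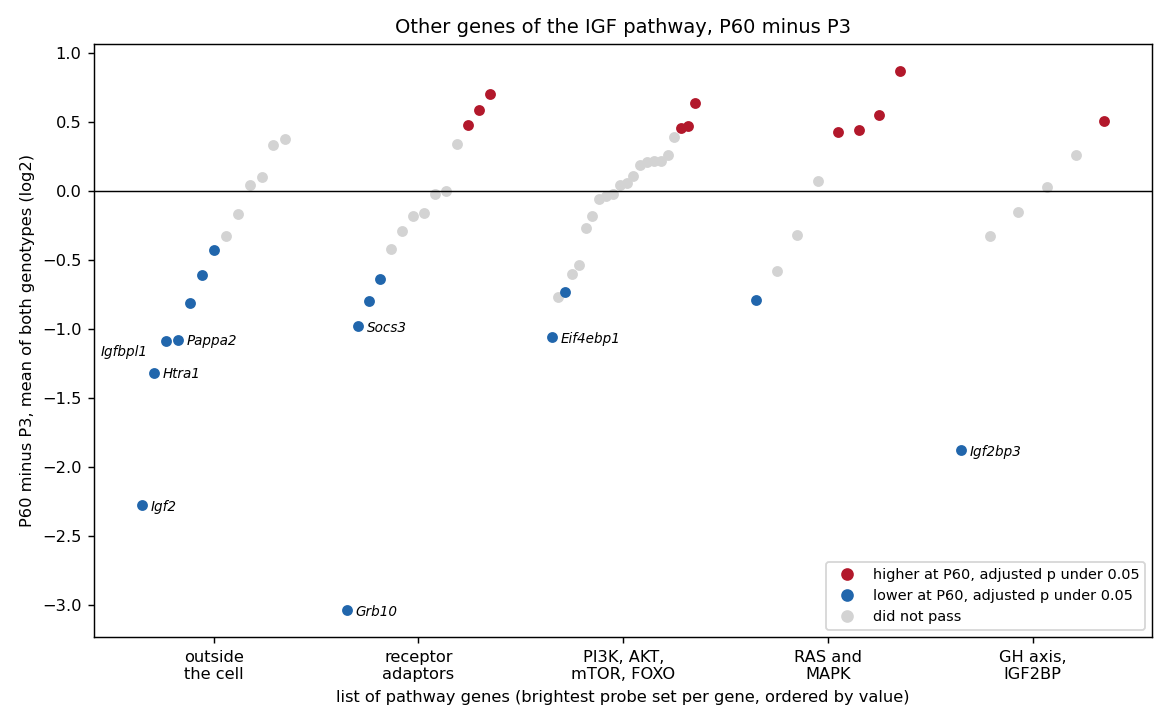
P60 minus P3 (log2, mean of both genotypes) on the vertical axis for 63 other genes of the pathway in 5 lists, 1 point per gene at its brightest probe set, red where the gene rose, blue where it fell and grey where it did not pass. Grb10, Igf2 and Igf2bp3 stand lowest at -3.04, -2.28 and -1.88, and none of the genes outside the cell is red.

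The effect of losing the α9 subunit was tested within each age on the 18015 most variable probe sets, where a call needed a difference of more than 1.5 on the log2 scale beside an adjusted p below 0.05 (limma). Of the members 16 were in this filter and 10 were not. No member was called at P3, P7 or P60, where 0%, 0.0111% and 0% of the tested probe sets were called, and at an unadjusted p under 0.05 there were 0, 0 and 1 among the 16 members and 317, 269 and 1102 among all. The study, at the same threshold, reported more differentially expressed genes at each of these ages, and measured some at P60 by qPCR. Its calls there were thus not reproduced by the fit used here, and the reason was not tested. The brightest probe sets of the 9 genes differed between genotypes by -0.49 to 0.38 at P3, by -0.29 to 0.05 at P7 and by -0.46 to 0.32 at P60. The medians of the 26 probe sets at P7 and P60 were both -0.06, beside 0.01 and -0.08 for all probe sets.

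At P13, 4 members were called, all higher in α9-/-, where 7.16% of the tested probe sets were called in either direction. They were 1 probe set each of Igf2r, Igfbp4, Igfbp5 and Igf1r, and none was the brightest of its gene. The arrays of 9 of the 26 probe sets lay wholly higher in α9-/- and those of 1 wholly lower, where 11.3% and 22.3% of all 45037 probe sets did. The median difference was 0.51, beside -0.16 for all probe sets. The count of 4 was 1 without wild type replicate 2, without α9-/- replicate 2 or without α9-/- replicate 3, and 8 without wild type replicate 3. None was called without the 2 wild type arrays of low 5′ signal, which leaves 1 wild type array whose spread is taken from the α9-/- arrays.

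The called probe set of Igf2r, 1424112_at, read 6.69, 7.59 and 8.18 in wild type replicates 1 to 3 at P13 and 9.83, 9.66 and 10.00 in α9-/- (difference 2.34, SE 0.39, adjusted p = 0.0145). The brightest probe set of the same gene read 9.06, 8.94 and 9.56 in wild type and 10.18, 9.68 and 9.18 in α9-/-, so its groups overlapped (difference 0.49, adjusted p = 0.298). For Igf1r, 1426565_at read 6.06, 6.59 and 7.34 against 8.15, 8.85 and 8.30 (difference 1.77, SE 0.38, adjusted p = 0.0276). The brightest probe set of Igf1r, outside the filter, differed by 0.54 (adjusted p = 0.391 with all probe sets tested), with wild type replicate 1 at 9.46 and the other two at 10.88 and 10.86.

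For Igfbp4, 1421991_a_at read 6.87, 6.73 and 7.02 in wild type and 9.05, 9.20 and 8.57 in α9-/- (difference 2.06, SE 0.26, adjusted p = 0.00705). The brightest probe set read 13.11, 13.18 and 13.24 against 13.26, 13.21 and 12.86, a difference of -0.07 (adjusted p = 0.824 with all probe sets tested). The 6 probe sets of this 1 gene thus differed between genotypes by anything from -0.07 to 2.20. For Igfbp5, 1422313_a_at read 8.58, 7.25 and 7.53 against 9.89, 9.81 and 9.40 (difference 1.91, SE 0.38, adjusted p = 0.0231), while the brightest probe set, at 11.58, 11.89 and 12.16 against 12.27, 12.66 and 12.31, differed by 0.54 without overlap (adjusted p = 0.161 with all probe sets tested).

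The other genes had no called probe set at P13, and their brightest probe sets are given first. Igfbp2 read 9.26, 9.49 and 10.53 in wild type and 11.10, 10.95 and 10.70 in α9-/-, a difference of 1.16 that was not called (adjusted p = 0.0684), and it was 0.38 without the arrays of low 5′ signal. Igf1 read 11.72, 11.98 and 11.80 against 11.75, 11.89 and 11.95, a difference of 0.03 (adjusted p = 0.928). Igfbp6 differed by 0.38 (adjusted p = 0.265), Igfbp3 by -0.52 (adjusted p = 0.233) and Igfbp7 by -0.23. At the brightest probe sets the genotypes overlapped for Igf1, Igfbp3 and Igfbp7 and did not for Igfbp2 and Igfbp6. Among dimmer ones, Igf1 1419519_at was higher in α9-/- without overlap (0.66, adjusted p = 0.130, limma). Igf1 1452014_a_at differed by 0.70 with overlap (adjusted p = 0.234). Igfbp7 1423585_at was lower in α9-/- without overlap (-0.54, adjusted p = 0.119 with all probe sets tested). Of the 63 other pathway genes only 21 were in the filter and so could be called, and none of these 21 was called at any age. Over all 63 the difference between genotypes at P13 lay between -0.86 and 0.91.

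**Figure D4:**
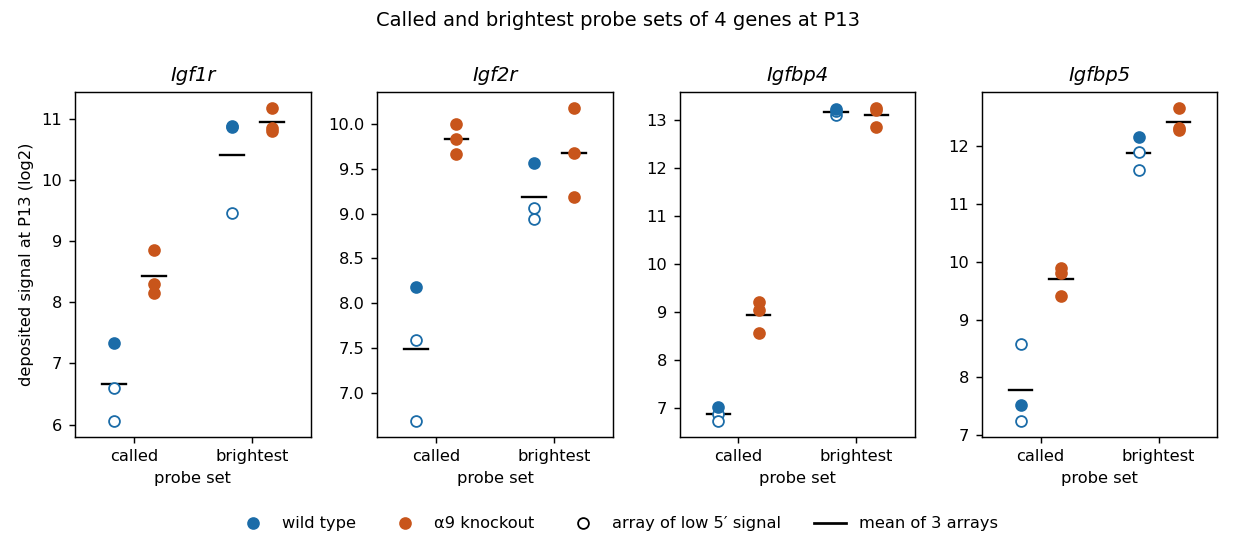
Deposited signal (log2) at P13 on the vertical axis for the called and the brightest probe set of Igf1r, Igf2r, Igfbp4 and Igfbp5, with 1 point per array, open points for arrays of low 5′ signal and bars at the means of 3 arrays. At the called probe sets all α9-/- points lie above all wild type points by 1.77 to 2.34 on average, while at the brightest probe sets the means differ by -0.07 to 0.54, and heights of different probe sets are not comparable.

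The called probe sets were also lower in arrays of low 5′ signal at P3 and P60, within groups of 1 genotype and 1 age. In P3 wild type, P3 α9-/- and P60 wild type, 1 array had low 5′ signal and 2 had not, and the difference between them was averaged over these 3 groups. It was -2.81 for the called probe set of Igfbp4, -2.76 for that of Igfbp5, -1.22 for that of Igf2r and -1.09 for that of Igf1r. For the brightest probe sets of these genes it was 0.15, -0.22, -0.36 and -0.02, and the median over all probe sets was between 0.17 and 0.21 in the 3 groups. Igfbp5 1422313_a_at, for example, read 6.40 in P3 wild type replicate 1 beside 10.09 and 10.08 in replicates 2 and 3, and 6.56 in P3 α9-/- replicate 2 beside 9.59 and 10.10 in replicates 1 and 3. Within P13 wild type itself, where 2 arrays had low 5′ signal and replicate 3 did not by this rule, the difference was -1.04 for the called probe set of Igf2r and -1.01 for that of Igf1r, but -0.22 for that of Igfbp4 and 0.39 for that of Igfbp5.

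On this average over 3 groups, all 8 member probe sets with a P13 difference above 1 were lower by more than 1 in the arrays of low 5′ signal, and none of the remaining 18 was. In the single groups 3 of these 8 were lower by more than 1 in P3 wild type, 5 in P3 α9-/- and 7 in P60 wild type. For Igfbp2 and for 2 of the dimmer probe sets of Igfbp4 the P60 wild type array, with -2.20, -2.97 and -2.88, carried the average past -1, while their differences at P3 lay between -0.68 and 0.20. Across the 26 probe sets the 2 quantities, measured on different arrays, had a Pearson correlation of -0.89, and across all 45037 it was -0.81, where probe sets are not independent. Without the arrays of low 5′ signal the P13 differences of the 4 called probe sets were 1.10 for Igf1r, 1.65 for Igf2r, 1.92 for Igfbp4 and 2.17 for Igfbp5, against wild type replicate 3 alone, whose own difference between the 3′ and 5′ Gapdh controls was 2.43, while it was at most 0.34 in α9-/-. At P13, 5′ signal and genotype therefore cannot be told apart with these arrays.

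**Figure D5:**
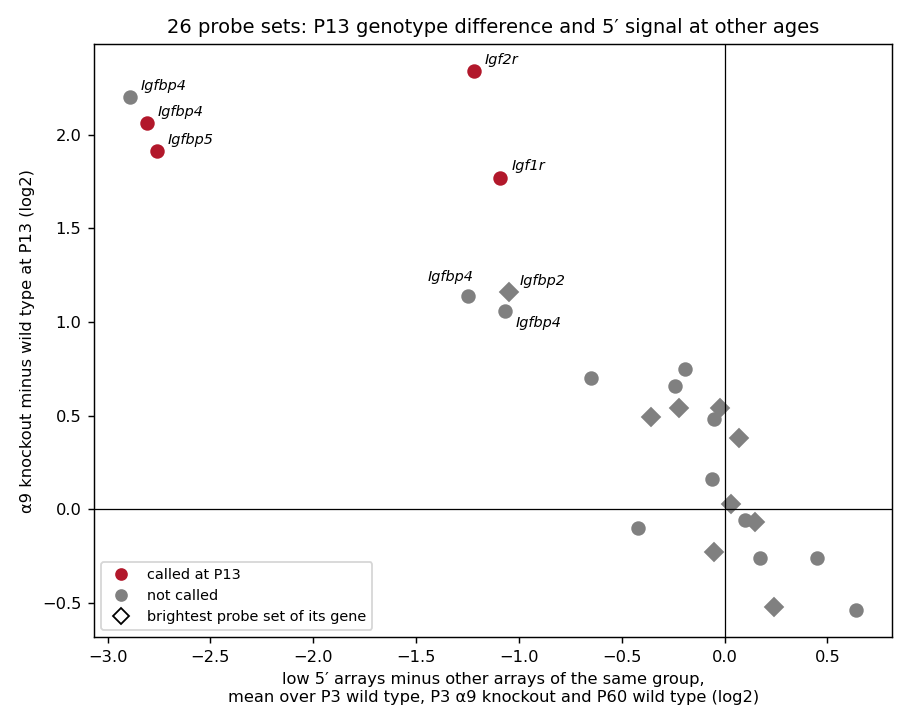
α9-/- minus wild type at P13 (log2, vertical axis) against the difference between arrays of low 5′ signal and other arrays of the same group, averaged over 3 groups at P3 and P60 (log2, horizontal axis), with 1 point for each of the 26 probe sets, red for those called at P13 and diamonds for the brightest of a gene. The 8 probe sets above 1 on the vertical axis all lie below -1 on the horizontal axis, and 7 of these 8 are not the brightest of their gene.

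A difference between genotypes in the change with age was tested as an interaction. No member passed in any of the 4 intervals, where 0%, 0.00222%, 0% and 0% of all probe sets passed from P3 to P7, P7 to P13, P13 to P60 and P3 to P60 (limma). At an unadjusted p under 0.05 there were 0, 4, 4 and 0 members among the 26, and 616, 3996, 1807 and 1615 probe sets among all.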

How the data were processed

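Cochlear RNA of 24 pools was measured on as many arrays. Each deposited value was the log2 signal of a probe set on 1 array, which the authors made in AffyPLM with RMA background correction, quantile normalization and a Tukey biweight summary. Replicates were separate pools, and with 3 per group precision is limited by their number.

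Probe sets were named from the platform annotation, which gave 34945 of 45037 a single gene, 932 several and 9160 none, with symbols updated through gene IDs to RefSeq of GRCm38.p6. The 64 control probe sets were left out of all tests. Genotypes were compared within an age with limma 3.58.1 in R 4.3.3 on the deposited values of the top 40% of probe sets by variance, after the study's methods, with Benjamini-Hochberg adjustment. Members outside that filter were given the adjusted p of the same fit over all probe sets. Ages were compared in 1 limma fit of 8 groups over all probe sets, after quantile normalization across all arrays. An array had low 5′ signal where the Gapdh controls differed by more than 4. Of replicate numbers shared by the genotypes, same-numbered arrays deviated with correlations from -0.63 to 0.58, so they were not taken as pairs.

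The text names all members, up to 4 pathway genes in each direction with the largest difference between P3 and P60 among those that passed, and the 3 genes most like a member, or the first of them. Members, lists and rules were chosen with earlier results of these data known. The 22 list genes without a probe set of their own are not analysed here. The fits were also run on simulated data with independent noise and no shift of 5′ signal. Changes were added there only to probe sets of below-median spread. A minimum recovery was required of the age fit and not of the genotype fit. Alternatives covered the filter, threshold, normalization, array weights, a replicate block, poly-A control transcripts and leaving out arrays. Figures were drawn in Python 3.11.15 with matplotlib 3.10.9.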

Additional observations from a re-analysis of the deposited data

How the results depend on the processing

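At P13 the 4 probe sets called between genotypes were 2 with all arrays in 1 fit, 0 without the arrays of low 5′ signal, and between 1 and 8 on leaving out 1 array. The 7 probe sets that passed between P7 and P13 were 3 with an added log2 threshold of 1.5, 13 with array weights, 1 in α9-/- alone, and between 3 and 9 on leaving out 1 array. The 7 between P13 and P60 were 0 with the log2 threshold, 13 with array weights, 2 in α9-/- alone, and between 6 and 9 on leaving out 1 array. The 10 between P3 and P60 were 2 with the threshold, 6 in α9-/- alone, and 9 or 10 on leaving out 1 array. Between P3 and P7, where none passed, 4 did with array weights, 2 without the arrays of low 5′ signal, and 0 or 1 on leaving out 1 array. Of the interactions, where none passed, array weights gave 5 from P7 to P13 and 8 from P13 to P60. Leaving out 1 array changed no genotype count at P3, P7 or P60 and no interaction count, which stayed at 0. The cause of these changes was not tested, except that α9-/- alone uses fewer arrays.

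With a replicate block the counts were 4 between genotypes at P13, 5 from P7 to P13, 7 from P13 to P60 and 10 from P3 to P60, and the block changed no other count. Without arrays of low 5′ signal there was no other value at P7, where no array had it, and poly-A control transcripts could not be a block at P60, where all arrays held them. Of 426 alternative values of single probe sets, 394 kept direction and call, 32 kept direction only, and 0 reversed.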
